A study of Mesocricetus auratus with 36 samples.

Results

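Prostaglandins are lipid messengers made from arachidonic acid that phospholipases free from membranes. The cyclooxygenases Ptgs1 and Ptgs2 turn arachidonic acid into prostaglandin H2, and terminal synthases turn this into single prostaglandins: Ptges (microsomal prostaglandin E synthase 1), Ptges2 and Ptges3 make prostaglandin E2, and Ptgds (lipocalin-type prostaglandin D synthase) makes prostaglandin D2. Hpgd (15-hydroxyprostaglandin dehydrogenase) starts their breakdown, and Ptger3 and Ptger4 code for the prostaglandin E2 receptors EP3 and EP4. In the hypothalamus prostaglandin E2 is best known as the mediator of fever, and prostaglandin D2 as a sleep-promoting signal.

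These 9 genes, of 32340 in the deposited count tables, were followed through the hibernation season of the golden hamster (Mesocricetus auratus). They were listed by symbol, but the set was chosen by a measured value, the high level of Ptges in interbout euthermia, the warm phase between torpor bouts. Every Ptges comparison that involves interbout animals is therefore given as a description with no test. All 9 symbols were found in all 36 libraries. Ptgs2 did not pass the filter on low counts, so 8 of the 9 were tested after it.

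The tissue was the lining of the third ventricle in the mediobasal hypothalamus, dissected by laser capture so as to enrich tanycytes, the radial glia-like cells of the ventricle floor. RNA was sequenced from 36 male hamsters, 6 in each of 6 groups, with no genetic change in any group. The long photoperiod group had 14 h of light at 22 °C and is labelled 8 months old. The other 5 groups had 10 h of light at 8 °C: pre-hibernation (4 weeks, labelled 4 months old), late pre-hibernation (8 to 12 weeks, before the first torpor, 6 months), interbout euthermia (23 h into the warm phase after 3 torpor cycles, 6 months), torpor (13 h into a bout after 3 cycles, 6 months) and refractory (about 20 weeks, at least 2 weeks since the last torpor bout, 8 months). Day length, temperature and, for all but the refractory group, age changed together between long photoperiod and the other groups and cannot be told apart. The protocol describes long photoperiod animals taken both before the switch and at the end, while the labels give all 6 the same age.

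Libraries held 5161108 to 28541745 counted fragments. In 33 libraries ribosomal RNA genes took at most 0.826% of counts. In the other 3, refractory 4, pre-hibernation 5 and interbout 6, they took 7.207% to 41.765%. Some results, among them those of Ptgs1, Ptgs2, Ptges2, Ptges3, Hpgd and Ptger3, are also given without these 3 libraries. Others, such as the Ptges differences from interbout, are given only with them. All 9 listed tanycyte markers were detected, with a summed level of 323.4 to 1484 CPM per library (CPM is a count scaled to a library size common to all samples); only Slc17a8 reached 0, in 1 library. Motile ependymal markers summed to 2039 to 6328 CPM per library and astrocyte markers to 2055 to 4838, so the samples were mixed. In such bulk samples, fewer cells of a type and less RNA per cell cannot be told apart. Levels below are TMM-normalised CPM, given as mean ± SD with n = 6. Differences are log2 fold changes ± SE from 1 edgeR quasi-likelihood fit of all 36 libraries, with Benjamini-Hochberg adjusted p-values (17926 genes were tested) called below 0.05.

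The 9 genes spanned a wide range of abundance. Per kilobase of exon and averaged over all 36 libraries, Ptgds was the most abundant at 937 CPM/kb. Ptges3, which is also the HSP90 cochaperone p23, followed at 257 CPM/kb. Ptges2 lay at 9.63 CPM/kb, Ptgs1 at 2.57, Ptges at 2.49 and Hpgd at 1.01 CPM/kb. Ptger4 (0.286 CPM/kb) and Ptger3 (0.160 CPM/kb) were scarce, and Ptgs2 was nearly undetected at 0.0452 CPM/kb. Length-scaled levels compare genes with one another; all other levels are per gene and unscaled.

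All 9 are annotated as protein-coding genes in RefSeq on assembly BCM_Maur_2.0. Ptges spans 1002395 to 1018240 and Ptgds 6912916 to 6916365, both on the plus strand of the same contig. Ptges2 (475267 to 482416, plus strand of another contig) overlaps the gene Lcn2 on the opposite strand. Ptger4 (1765677 to 1776987, minus strand) overlaps an unnamed locus on the opposite strand. These overlaps are of whole gene spans, and whether exons overlap was not checked. Counting was not strand-specific, so fragments from any shared exon stretch could not be assigned to either gene with certainty. The other members overlap no annotated gene.

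Across the 6 groups, 2 of the 7 members tested this way, Hpgd and Ptger3, passed the quasi-likelihood F-test (adjusted p = 0.0213 and 0.0448). Of all genes tested 14.6% passed, so nothing particular to the members is read from this count. Ptgs1 had an adjusted p of 0.0785, Ptgds 0.165, Ptges2 0.455, Ptger4 0.536 and Ptges3 0.73 in the same test. Ptges was left out of it because its interbout values chose the set.

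Of the cyclooxygenases, the constitutive enzyme Ptgs1 was expressed in every library. Its level was highest in refractory animals (9.39 ± 1.10 CPM), followed by long photoperiod (7.98 ± 1.58), interbout (7.67 ± 2.92), late pre-hibernation (6.40 ± 2.43), torpor (6.23 ± 1.29) and pre-hibernation (5.42 ± 0.79). Pre-hibernation animals ran from 4.37 to 6.63 CPM (median 5.52) and refractory animals from 8.04 to 10.96 (median 9.02). Refractory animals thus lay above all pre-hibernation and all torpid animals, pairs of groups that were not tested. Of all genes tested, 2.18% did not overlap in the first pair and 5.05% in the second. Long photoperiod (5.26 to 9.71, median 8.41), interbout (3.52 to 11.22, median 7.44), late pre-hibernation (3.87 to 10.69, median 5.66) and torpor (3.80 to 7.32, median 6.70) overlapped one another. The difference between pre-hibernation and long photoperiod was -0.56 ± 0.22 (adjusted p = 0.242), and no comparison of Ptgs1 passed. Its test over the 6 groups did pass with DESeq2 (adjusted p = 0.0254), with limma (0.011), without the 3 libraries rich in ribosomal RNA (0.0301), and without late pre-hibernation 2 (0.0233) or interbout 6 (0.0226).

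The inducible cyclooxygenase Ptgs2, the enzyme that rises in inflammation and fever, gave 71 fragments in all 36 libraries together. It was at 0 in 14 libraries, where a count of 0 allows up to 3 counts, or 0.111 to 0.270 CPM depending on the library; such limits cover counting error only. In interbout animals 4 of 6 libraries held no fragment and the highest reached 0.132 CPM. Torpor 4 held 15 fragments (0.657 CPM) and refractory 4 held 14 (4.80 CPM), and all other libraries were at or below 0.172 CPM. With no filter on low counts, where 31426 genes were tested, Ptgs2 passed over the 6 groups (edgeR adjusted p = 0.0221). That call rested on refractory 4: the adjusted p was 0.308 without that library and 0.315 without the 3 libraries rich in ribosomal RNA. Between 2 groups the lowest adjusted p in that fit was 0.0501, in refractory against interbout (4.14 ± 1.33), and without refractory 4 this difference was 1.90 ± 1.07 (0.438).

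Ptges, the inducible synthase that is usually coupled to Ptgs2, varied most among the synthases. The 6 long photoperiod animals had 12.20, 7.22, 6.18, 7.48, 4.41 and 14.67 CPM. The 6 interbout animals had 8.81, 13.68, 7.21, 1.53, 10.91 and 3.44 CPM. In both groups the level was high on average but uneven, and in interbout 4 of 6 animals were at or above 7.21 CPM while the other 2 lay within the range of torpor.

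The other 4 groups were lower. Pre-hibernation animals ran from 2.11 to 4.24 CPM (median 2.33). Late pre-hibernation animals ran from 0.171 to 2.24 CPM (median 1.64), the lowest value resting on 4 fragments. Torpid animals had 3.32, 3.50, 4.83, 2.37, 0.780 and 0.536 CPM. Refractory animals ran from 2.35 to 5.45 CPM (median 3.87). Every pre-hibernation and late pre-hibernation animal was below every long photoperiod animal, while torpor and refractory overlapped long photoperiod slightly. Of the 17926 genes tested, 631 did not overlap between pre-hibernation and long photoperiod and 804 between late pre-hibernation and long photoperiod.

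**Figure D1:**
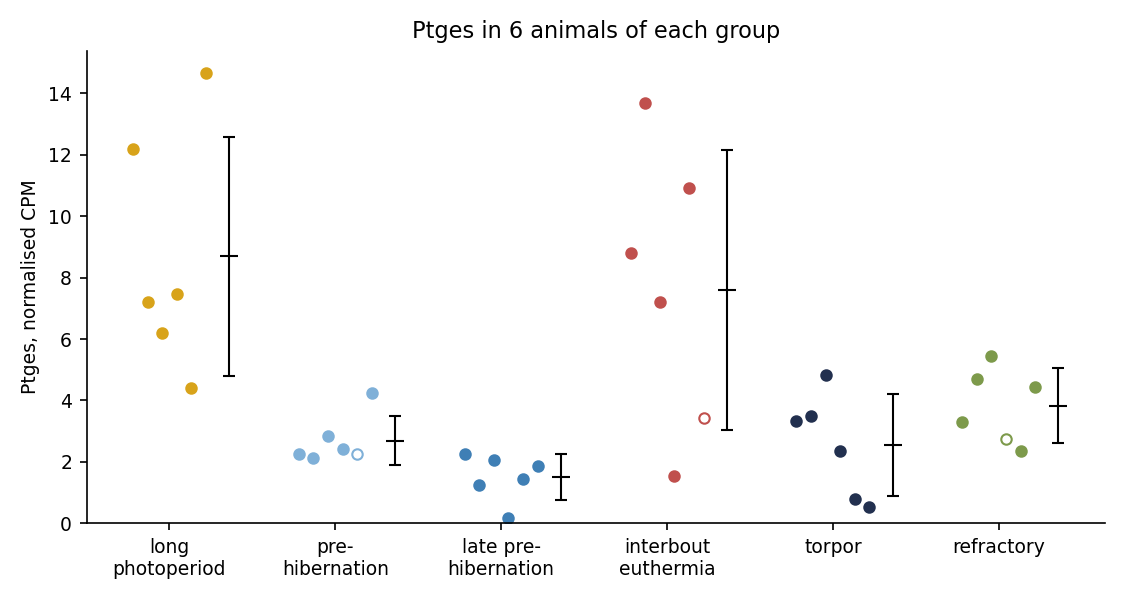
Normalised CPM of Ptges (vertical axis, linear) in each of 6 animals (points) of the 6 groups (horizontal axis), with mean ± SD beside them; open points are the 3 libraries rich in ribosomal RNA. Long photoperiod has the highest mean, 8.69 CPM, interbout follows with 7.60 CPM and the widest spread, and late pre-hibernation is lowest at 1.50 CPM.

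Group means placed long photoperiod first at 8.69 ± 3.90 CPM, then interbout at 7.60 ± 4.56, refractory at 3.83 ± 1.22, pre-hibernation at 2.69 ± 0.80, torpor at 2.55 ± 1.67 and late pre-hibernation at 1.50 ± 0.75. The statement behind the choice of the set, that Ptges peaks in interbout euthermia, holds for the 5 groups kept at 8 °C only. Over all 6 groups the highest mean was in long photoperiod, and interbout differed from it by -0.19 on the log2 scale, less than the spread in either group (-0.44 to 0.02 with single libraries left out). As a description, interbout was 5.05-fold above late pre-hibernation (log2 difference 2.34), torpor was 1.57 below interbout on the log2 scale (-1.57), and refractory was lower by a log2 difference of -0.97. Of neighbours in the order, interbout with refractory, refractory with pre-hibernation, pre-hibernation with torpor and torpor with late pre-hibernation also had overlapping ranges.

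The comparisons of Ptges that leave interbout aside could be tested. Ptges fell in pre-hibernation against long photoperiod (-1.69 ± 0.45, adjusted p = 0.0341, lower in 6 of 6 animals), the only one of 8 tested members to pass, where 2.29% of all genes did. This call is borderline: it was lost when long photoperiod 1, 4 or 6 or any of pre-hibernation 1 to 5 was left out (adjusted p up to 0.0993). It was also lost with neuron and oligodendrocyte markers as covariates (-1.40, adjusted p = 0.102). The summed levels of both marker lists were lower in pre-hibernation than in long photoperiod. Medians were 381.8 against 484.5 CPM for neurons and 275.9 against 383.8 for oligodendrocytes (median log2 differences -0.359 and -0.431, no marker called). Astrocyte markers, not used as covariates, were also lower in pre-hibernation (median 2990 against 3713 CPM). In late pre-hibernation the neuron and oligodendrocyte medians were 514.1 and 299.3 CPM. Ptges fell further from long photoperiod in late pre-hibernation, by a log2 difference of -2.52 ± 0.47 (adjusted p = 0.00068) or 5.75-fold, again the only member called, beside 3.58% of all genes. That call held whichever of the 12 libraries was left out (adjusted p up to 0.00296) and with the same marker covariates. It also held with long photoperiod 1 to 3 or 4 to 6 as the only reference (0.00849 and 0.0114).

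In torpor Ptges was 3.38-fold below long photoperiod (-1.76 ± 0.45, adjusted p = 0.00968), a call kept whichever of the 12 libraries was left out (adjusted p up to 0.0317). It was lost with only long photoperiod 1 to 3 or 4 to 6 as the reference (0.052 and 0.0632), fits with fewer animals. Over the 11 other settings the log2 difference stayed between -1.96 and -1.64. With Hpgd, described below, 2 of 8 members fell in this comparison, beside 9.05% of all genes called. In refractory animals, the same labelled age as the long photoperiod group, the difference of Ptges was -1.16 ± 0.45 (adjusted p = 0.232). None of the 8 members passed there with edgeR, DESeq2 or limma, and 0.329% of all genes did with edgeR. Only 1 member, Ptges itself, had an unadjusted edgeR p below 0.05 (0.0142).

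Between the short photoperiod groups Ptges gave no call. Late pre-hibernation against pre-hibernation was -0.84 ± 0.46 and torpor against late pre-hibernation 0.77 ± 0.46 (adjusted p = 0.9997 and 0.471). In the first of these, edgeR called 0 of 8 members and 0% of all genes (0 members at an unadjusted p below 0.05, and 739 of all genes). DESeq2 called 4 genes and limma 11, no member among them. In the second, edgeR called 0 of 8 members beside 4.45% of all genes. There 1 member had an unadjusted p below 0.05, Hpgd, which DESeq2 and limma called.

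The summed level of the 9 tanycyte markers is mostly that of Crym, and its median was 882.6 CPM in long photoperiod, 814.2 in interbout, 782 in refractory animals, 734.6 in pre-hibernation, 663.2 in late pre-hibernation and 632 in torpor. Late pre-hibernation 4, with the lowest Ptges of all libraries, had the lowest tanycyte sum (323.4 CPM) and the highest neuron sum (960.5 CPM). Refractory 6 had the highest tanycyte sum (1484 CPM) with Ptges at 4.45 CPM. Late pre-hibernation 6 had a tanycyte sum of 899.2 CPM with Ptges at 1.85 CPM. These are single libraries. Crym averaged 614.6 CPM in long photoperiod, 384.2 in pre-hibernation and 328.9 in late pre-hibernation. Tgfb2 (20.43 and 20.41 against 25.74 CPM) and Slc17a8 (1.3 and 2.144 against 2.645) were lower in both groups too. Other markers had higher means in these 2 groups than in long photoperiod, among them Rax (153.9 and 149.9 against 124.6 CPM) and Gpr50 (6.74 and 5.19 against 2.82). Over the 9 markers the median log2 difference from long photoperiod was 0.296 in pre-hibernation and 0.144 in late pre-hibernation. None of the 9 markers passed on its own in pre-hibernation, late pre-hibernation, interbout or refractory animals against long photoperiod, and 1 of 9 fell in torpor. Among other cell types, pituitary markers were higher in long photoperiod (median sum 142.5 CPM, range 36.08 to 396.4) than in interbout (13.8, range 11.95 to 17.59). Of these markers, 5 of 6 were called lower in interbout, beside 1.85% of all genes called. Of the same 6 markers, 2 were lower in pre-hibernation, 1 in late pre-hibernation and 4 in torpor than in long photoperiod. The shares of all genes called there, in either direction, were 2.29%, 3.58% and 9.05%. Blood markers were also highest in long photoperiod and refractory animals (medians 19.84 and 20.76 CPM, against 2.785 in torpor). The part of tanycytes and of these other cell types in the Ptges differences was not tested.

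The other prostaglandin E2 synthases gave no call in edgeR's fit of all libraries. Ptges2, the membrane-associated synthase, averaged from 15.5 ± 4.4 CPM in torpor to 21.3 ± 5.9 in long photoperiod. Its medians were 20.3 CPM in long photoperiod, 17.7 in refractory animals, 16.8 in interbout, 15.8 in late pre-hibernation, 15.4 in pre-hibernation and 14.3 in torpor. Torpor was lower than long photoperiod by a log2 difference of -0.45 ± 0.19 (adjusted p = 0.157). That difference did pass without the 3 libraries rich in ribosomal RNA (-0.47, adjusted p = 0.0229), without torpor 4 (-0.63, 0.0334) and with limma (-0.44, 0.00951). With limma Ptges2 also passed in pre-hibernation (-0.39, adjusted p = 0.0271; edgeR -0.21, 0.746) and late pre-hibernation (-0.34, 0.0386; edgeR -0.38, 0.390) against long photoperiod. The libraries pre-hibernation 5 (32.6 CPM) and interbout 6 (27.8 CPM), both rich in ribosomal RNA, held the highest Ptges2 of their groups.

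Ptges3 was the steadiest of the 9. Its means lay between 429.9 ± 59.4 CPM in pre-hibernation and 493 ± 29 in long photoperiod, and torpor at 488 ± 30 CPM was within 0.02 of long photoperiod on the log2 scale (-0.02 ± 0.15, adjusted p = 0.973). The 3 lowest values of Ptges3 in all 36 libraries, 165 CPM in refractory 4, 318 in pre-hibernation 5 and 331 in interbout 6, were those of the 3 libraries rich in ribosomal RNA. Without these, late pre-hibernation was lower than long photoperiod by a log2 difference of -0.18 (adjusted p = 0.0406), the same size as with them (-0.18, 0.721).

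Ptgds, the abundant prostaglandin D2 synthase, had another order. It averaged 901 ± 184 CPM in interbout, 883 ± 115 in torpor, 780 ± 218 in late pre-hibernation, 756 ± 176 in long photoperiod, 751 ± 97 in pre-hibernation and 615 ± 153 in refractory animals. Interbout animals ran from 654 to 1217 CPM (median 888) and refractory animals from 464 to 865 (median 549), so the groups overlapped. The difference between them was -0.55 ± 0.18 (adjusted p = 0.0703). It passed with DESeq2 (-0.53, adjusted p = 0.0485), with limma (-0.67, 0.0246), with no filter on low counts (-0.61, 0.0466), and without interbout 6 (-0.63, 0.0398), refractory 3 (-0.68, 0.0204) or refractory 6 (-0.61, 0.0458). In interbout against long photoperiod the difference was 0.25 ± 0.18 (adjusted p = 0.662).

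**Figure D2:**
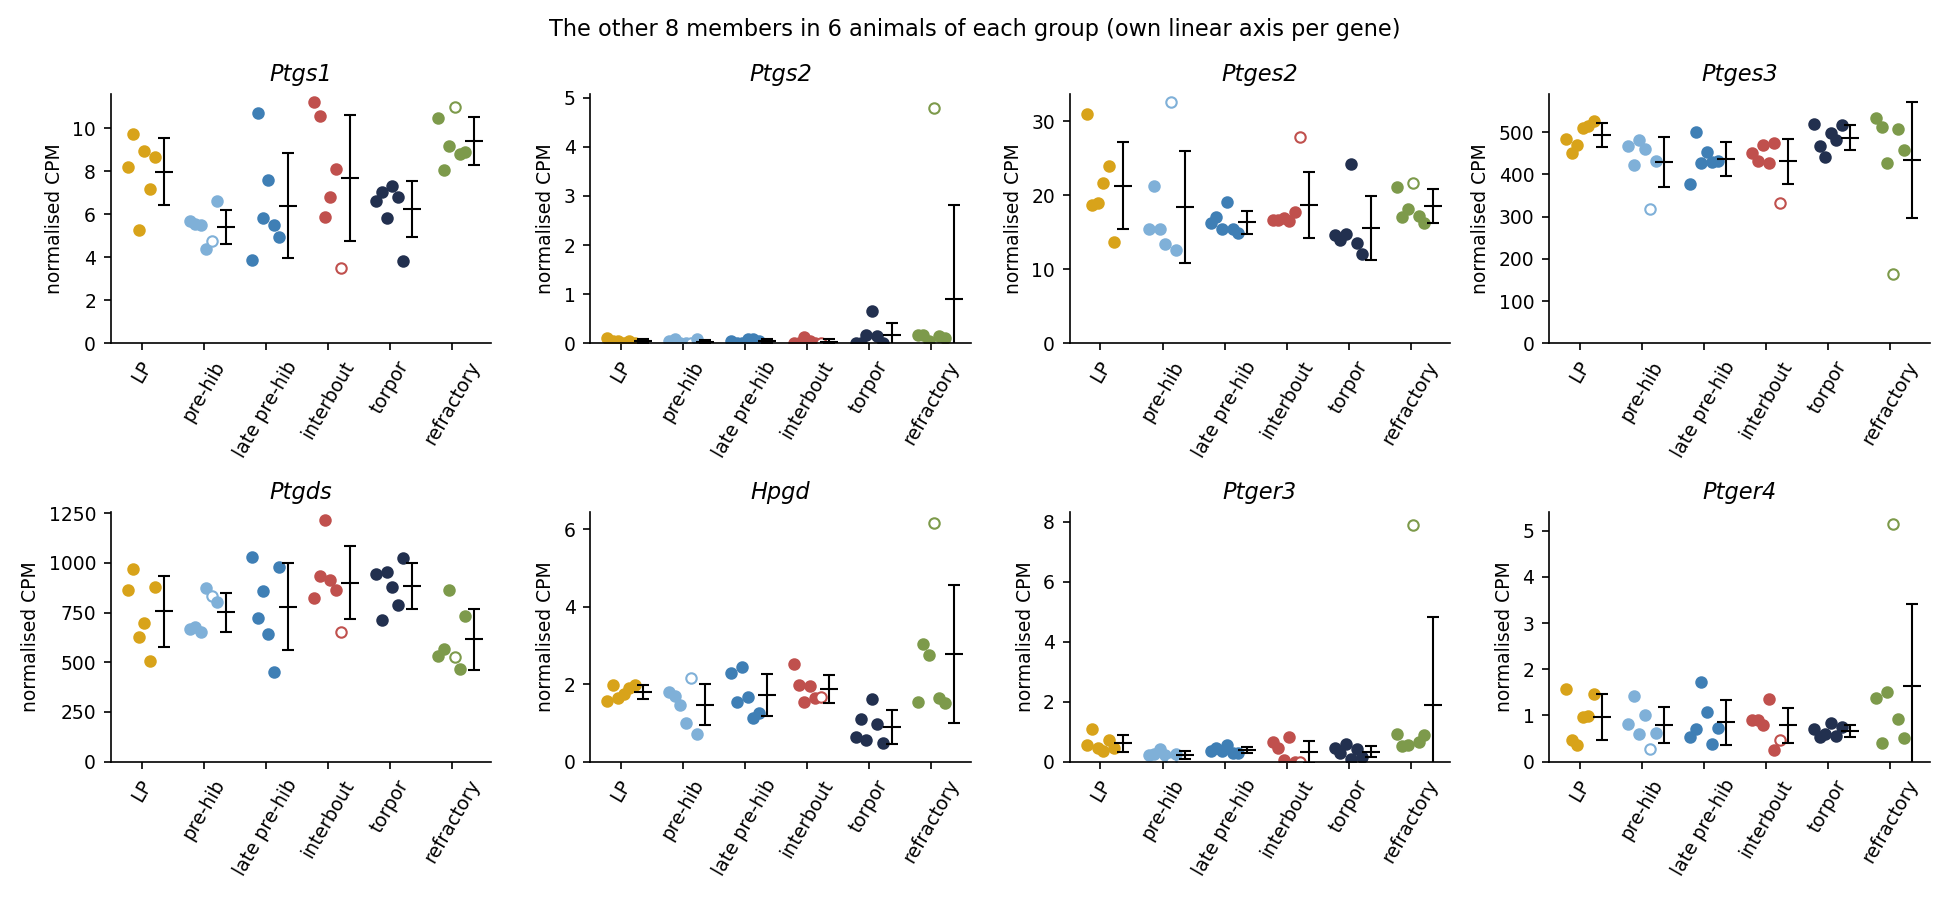
Normalised CPM of the other 8 members (vertical axes, linear, each panel with its own scale) in each of 6 animals per group (points; LP is long photoperiod), with mean ± SD cut at 0; open points are the 3 libraries rich in ribosomal RNA. Hpgd is lowest in torpor (0.90 CPM), and refractory 4 stands far above the other refractory animals in Ptgs2, Hpgd, Ptger3 and Ptger4.

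Hpgd, the enzyme of prostaglandin breakdown, was lowest in torpor. Torpid animals had 0.641, 1.12, 0.551, 1.62, 0.964 and 0.482 CPM. Interbout animals had 2.53, 1.97, 1.54, 1.94, 1.65 and 1.68 CPM, and long photoperiod animals ran from 1.57 to 1.99 CPM (median 1.82). Torpor 4, at 1.62 CPM, was the only torpid animal that reached the range of interbout or of long photoperiod.

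Hpgd fell in torpor against interbout (0.90 ± 0.43 against 1.89 ± 0.36 CPM, log2 difference -1.07 ± 0.32, adjusted p = 0.0458), or 2.10-fold. It was the only one of the 7 other members called, beside 4.06% of all genes. Hpgd also fell in torpor against long photoperiod (1.80 ± 0.18 CPM, -1.004 ± 0.317, adjusted p = 0.0394), and its difference from late pre-hibernation (1.72 ± 0.54 CPM) was -0.94 ± 0.32 (adjusted p = 0.0873). These calls rest on 9 to 37 fragments per torpid library and are fragile. Against interbout the call was lost in 10 of 12 fits that left out 1 library, all but those without interbout 3 or torpor 4 (adjusted p up to 0.115). Against long photoperiod it was lost in 10 of 12, all but those without torpor 2 or 4 (up to 0.102).

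The direction of the Hpgd differences stayed the same in all of these fits, between -0.95 and -1.33 against interbout. Without the 3 libraries rich in ribosomal RNA, Hpgd passed in torpor against interbout (adjusted p = 0.00929), long photoperiod (0.00657) and late pre-hibernation (0.016). Pre-hibernation animals had 1.47 ± 0.54 CPM and refractory animals 2.78 ± 1.79, the latter with 6.17 CPM in refractory 4 and 1.53 to 3.04 CPM in the others. The test over the 6 groups held without those 3 libraries (adjusted p = 0.0113) but not without torpor 1, 3 or 6 (0.055, 0.0557 and 0.0537). Of cell markers, 1 of 4 tested blood markers fell in torpor against interbout, where 4.06% of all genes were called. Blood markers summed to 2.876 to 38.48 CPM in interbout animals and 1.845 to 13.51 CPM in torpid ones. None of the ependymal, astrocyte or microglial markers passed in that comparison. Their part in the Hpgd result was not tested.

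The receptors were at the limit of detection. Ptger3, the Gi-coupled receptor EP3 through which prostaglandin E2 raises body temperature in the preoptic area, averaged 0.608 ± 0.270 CPM in long photoperiod, 0.383 ± 0.104 in late pre-hibernation, 0.333 ± 0.369 in interbout, 0.333 ± 0.190 in torpor and 0.233 ± 0.139 in pre-hibernation. In refractory animals the mean was 1.90 ± 2.93 CPM, with 7.88 CPM in refractory 4 and 0.517 to 0.911 in the other 5. Libraries held at most 31 fragments of it, and 3 held none. Its test over the 6 groups rested on that library: the adjusted p was 0.228 without refractory 4 and 0.181 without the 3 libraries rich in ribosomal RNA. Another 19 of the 36 fits that left out 1 library gave an adjusted p between 0.0508 and 0.0611.

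Refractory against interbout gave 2.16 ± 0.72 for Ptger3 (adjusted p = 0.0815), and 0.83 (0.372) without the libraries rich in ribosomal RNA. In that comparison edgeR called none of 7 members, with 2 at an unadjusted p below 0.05 (Ptgds and Ptger3), beside 3.5% of all genes; DESeq2 and limma called 2. Ptger4, the Gs-coupled receptor EP4, averaged between 0.663 ± 0.121 CPM in torpor and 0.967 ± 0.499 in long photoperiod in the 5 groups other than refractory. Refractory animals had 1.65 ± 1.77 CPM, with 5.14 in refractory 4 and 0.402 to 1.50 in the others. No comparison of Ptger4 passed, and the refractory difference from interbout was 0.83 ± 0.49 (adjusted p = 0.352).

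**Figure D3:**
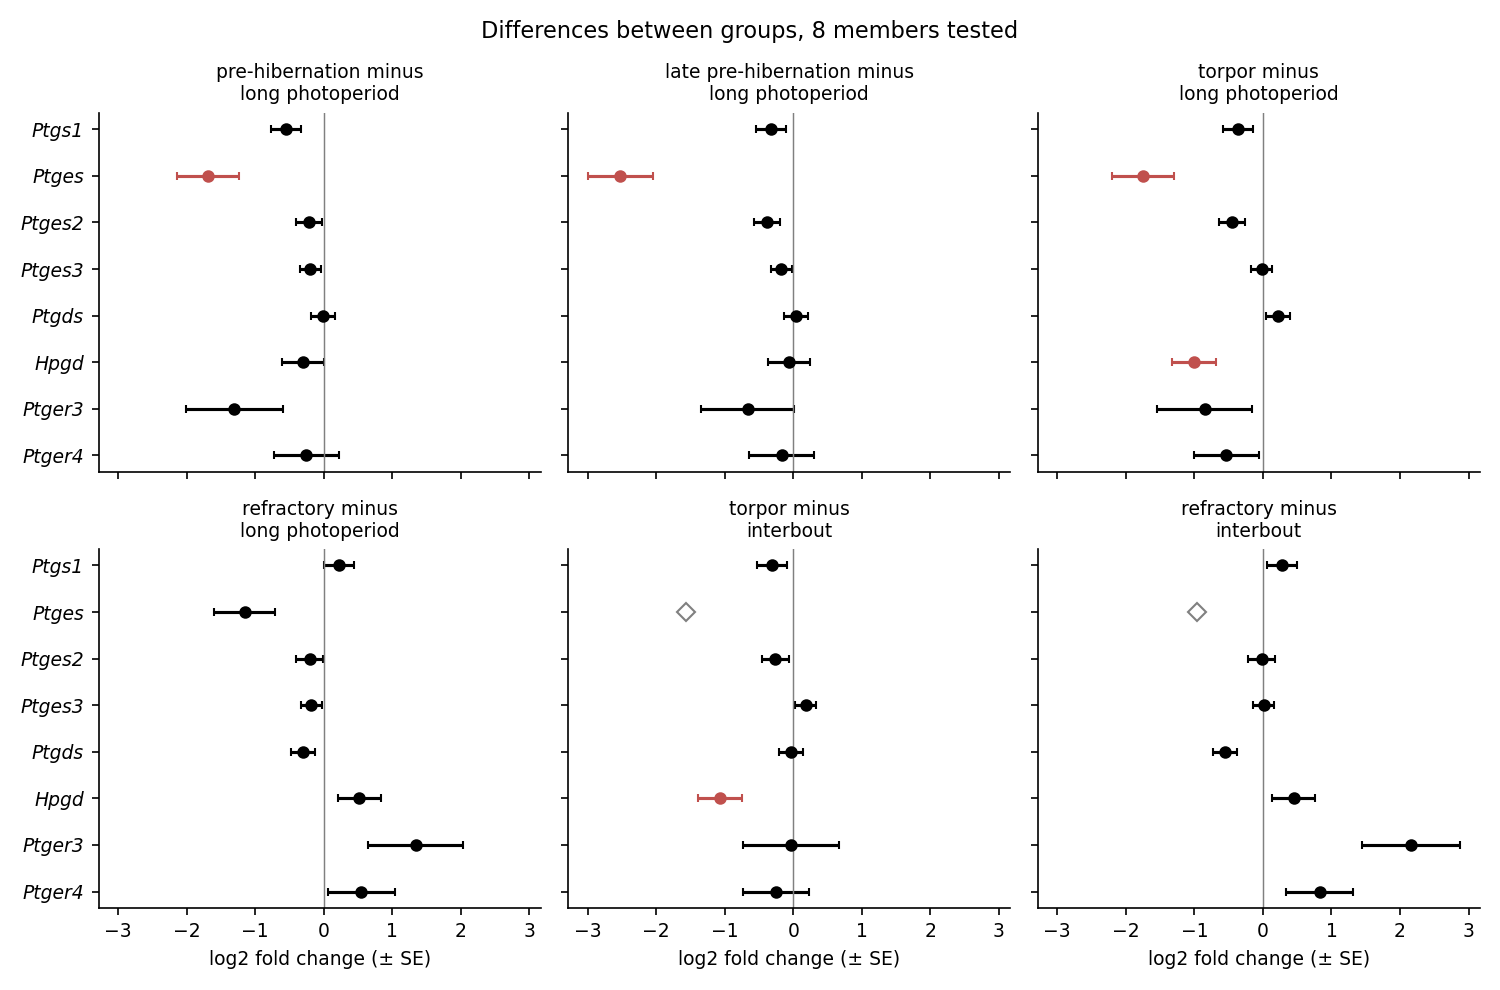
Log2 fold changes (horizontal axis) ± SE of the 8 members tested (rows) in 6 comparisons (panels); red points passed an adjusted p of 0.05, black ones did not, and grey diamonds are Ptges values given with no test. Ptges lies at -1.69, -2.52 and -1.76 in pre-hibernation, late pre-hibernation and torpor against long photoperiod, and Hpgd near -1 in both torpor panels.

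Interbout animals differed from late pre-hibernation and long photoperiod animals in none of the other members past the threshold. In interbout against late pre-hibernation edgeR, DESeq2 and limma called 0 of the 7 tested, none had an unadjusted p below 0.05, and edgeR called 0% of all genes (1104 with an unadjusted p below 0.05; 33 called by DESeq2 and 565 by limma). In interbout against long photoperiod the 3 tools again called 0 of 7, none with an unadjusted p below 0.05, beside 1.85% of all genes. The largest of these differences between interbout and late pre-hibernation were 0.27 ± 0.22 for Ptgs1 and 0.21 ± 0.17 for Ptgds. As these comparisons share the interbout animals that chose the set, nothing is read from their counts.

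Over the members tested, the median log2 difference was -0.28 in pre-hibernation against long photoperiod, -0.25 in late pre-hibernation and -0.49 in torpor, where the median over all genes was 0.014, -0.003 and 0.009. In refractory against long photoperiod it was 0.02, beside 0.03 over all genes. These comparisons share the long photoperiod animals. They describe 8 genes only, and 7 of 8 in pre-hibernation did not pass.

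Around the 9 genes, 74 other genes of the pathway were listed by role; 67 were found under their names and 57 could be tested. Of these, 15 of 57 passed the F-test over the 6 groups, beside 14.6% of all genes. The same share stands beside each count by role over the 6 groups below. The lists by role are short, and nothing particular to a role is read from those counts. The lists were drawn up with earlier results of these samples known and are not independent evidence of a direction.

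Among enzymes that release arachidonate, 3 of 12 passed over the 6 groups. Pla2g4b, a cytosolic phospholipase A2, rose in torpor to 4.73 ± 0.62 CPM from 2.68 ± 0.90 in interbout and 2.64 ± 0.98 in late pre-hibernation (0.81 ± 0.23, adjusted p = 0.0389, and 0.84 ± 0.23, adjusted p = 0.0296), calls that were lost in 10 and 6 of 12 fits that left out 1 library. Mgll, monoacylglycerol lipase, was lowest in pre-hibernation (13.6 ± 1.6 CPM) and highest in interbout (25.5 ± 9.0), with no comparison past the threshold. The secreted phospholipase Pla2g5 passed in pre-hibernation and late pre-hibernation against long photoperiod (-3.46, adjusted p = 0.0319, and -3.51, adjusted p = 0.0188), but 1 animal set both values: long photoperiod ran from 0.163 to 32.1 CPM, and without long photoperiod 5 the differences were -0.26 and -0.30 (adjusted p = 0.968 and 0.984). Of 7 genes that store or synthesise arachidonate, Lpcat3, a lysophospholipid acyltransferase, passed over the 6 groups, from 36.3 ± 12.2 CPM in refractory to 55.5 ± 7.3 in pre-hibernation animals.

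Of the other prostanoid synthases, 2 of 5 passed over the groups. Prxl2b, a prostamide and prostaglandin F synthase, passed in 5 of the 10 comparisons, more than any other of these pathway genes. It rose from 32.8 ± 5.6 CPM in long photoperiod to 50.9 ± 4.5 in interbout, 49.6 ± 3.1 in late pre-hibernation, 49.4 ± 11.2 in pre-hibernation and 45.9 ± 4.0 in torpor. The log2 differences were 0.63, 0.60, 0.59 and 0.48 (± 0.12 each), with adjusted p of 0.00245, 0.00178, 0.00359 and 0.00711. Each call held whichever of the 12 libraries was left out. In refractory animals Prxl2b was back at 36.1 ± 6.0 CPM, a fall against interbout (-0.48 ± 0.12, adjusted p = 0.0223) that was lost without interbout 4 (0.0507) or refractory 4 (0.0573). With long photoperiod 4 to 6 as the only reference the 4 rises were 0.38 to 0.53 and did not pass (adjusted p = 0.0976 to 0.178).

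Hpgds, the other prostaglandin D synthase, typical of immune cells, ranged from 1.17 ± 0.33 CPM in late pre-hibernation to 4.04 ± 3.92 in refractory animals, where 1 animal had 12.0 CPM. Ptgis, prostacyclin synthase, fell in refractory against interbout (2.48 ± 1.82 against 6.44 ± 2.37 CPM, -1.26 ± 0.37, adjusted p = 0.0496), a call lost in 8 of 12 fits that left out 1 library (adjusted p up to 0.107).

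In breakdown and transport, 2 of 5 passed. Zadh2, a prostaglandin reductase, rose in torpor against long photoperiod (38.2 ± 4.8 against 24.9 ± 2.1 CPM, 0.61 ± 0.15, adjusted p = 0.00646), though not with only long photoperiod 1 to 3 or 4 to 6 as the reference (0.135 and 0.0564). Hpgd, the step before it in breakdown, fell in the same comparison. Slco3a1, a transporter of prostaglandins among other anions, rose in refractory against interbout (11.6 ± 2.8 against 5.91 ± 0.95 CPM, 0.98 ± 0.25, adjusted p = 0.0242), though not without interbout 3 (0.062) or 4 (0.0639).

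Of 5 other prostanoid receptors, Ptger1 (EP1) passed over the groups. It rose against long photoperiod (3.25 ± 0.79 CPM) in late pre-hibernation (5.48 ± 0.83, log2 difference 0.75 ± 0.21, adjusted p = 0.0281) and in interbout (5.68 ± 1.26, 0.81 ± 0.21, adjusted p = 0.0311), and fell in refractory against interbout (3.34 ± 0.60, -0.76 ± 0.21, adjusted p = 0.0353). These 3 calls were lost in 7, 6 and 6 of 12 fits that left out 1 library. Ptger2 (EP2) rose in refractory against interbout (1.95 ± 1.29 against 0.491 ± 0.400 CPM, 1.82 ± 0.52, adjusted p = 0.0435), a call lost in 7 of 12. None of the 5 lipoxygenase-branch genes tested passed over the groups.

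Of 18 genes that induce or restrain the inflammatory branch, 6 passed over the groups. In torpor 6 of 18 passed against long photoperiod, 4 against late pre-hibernation and 3 against interbout, beside 9.05%, 4.45% and 4.06% of all genes. None did in the 7 comparisons without torpor, where 0% to 3.58% of all genes passed. Egr1, an immediate early transcription factor known to act on the Ptges promoter, rose to 7.83 ± 5.11 CPM in torpor from 1.46 ± 0.61 in interbout (2.43 ± 0.41, adjusted p = 0.000231), 1.56 ± 0.77 in late pre-hibernation (2.32 ± 0.41, 0.000333) and 1.68 ± 1.04 in long photoperiod (2.21 ± 0.41, 0.000292). Dusp1, the phosphatase that shuts off MAP kinases, rose to 160 ± 21 CPM from 78.9 ± 25.5 in interbout (1.02 ± 0.23, adjusted p = 0.00473), and by 1.04 against late pre-hibernation and long photoperiod (0.00357 and 0.00208, the latter 0.051 and 0.0558 with long photoperiod 1 to 3 or 4 to 6 alone). Nfkb1 fell to 6.19 ± 1.20 CPM from 9.68 ± 1.66 in interbout (-0.65 ± 0.17, adjusted p = 0.0157) and 11.4 ± 1.8 in long photoperiod (-0.88 ± 0.17, 0.000383). It also fell against late pre-hibernation (-0.60 ± 0.16, 0.0285), a call lost in 4 of 12 fits that left out 1 library.

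Nfkbia, the inhibitor of NF-kappaB, rose in torpor against late pre-hibernation (94.4 ± 10.2 against 61.5 ± 8.9 CPM, 0.62 ± 0.12, adjusted p = 0.00117) and long photoperiod (71.5 ± 11.1 CPM, 0.40 ± 0.12, 0.0281), the second lost in 6 of 12 fits that left out 1 library. The cytokine receptors Il6r and Il1r1 fell against long photoperiod (-0.94 ± 0.19, adjusted p = 0.000699, and -0.59 ± 0.19, 0.0451, the latter lost in 10 of 12). Ptges itself, a target gene of these signals, was lower in torpor than in long photoperiod. In that comparison Nfkb1, Il6r and Il1r1 were also lower, and Egr1, Dusp1 and Nfkbia were higher. Ptges was lower than in long photoperiod in pre-hibernation and late pre-hibernation too (-1.69 and -2.52), where none of the 18 genes passed. Whether these signals acted on Ptges here was not tested. Il1rn, the interleukin-1 receptor antagonist, passed over the groups on a few high libraries (up to 19.2 CPM in pre-hibernation, where the median was 0.213). The cytokine genes Il1a, Il6 and Tnf were too low to test.

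**Figure D4:**
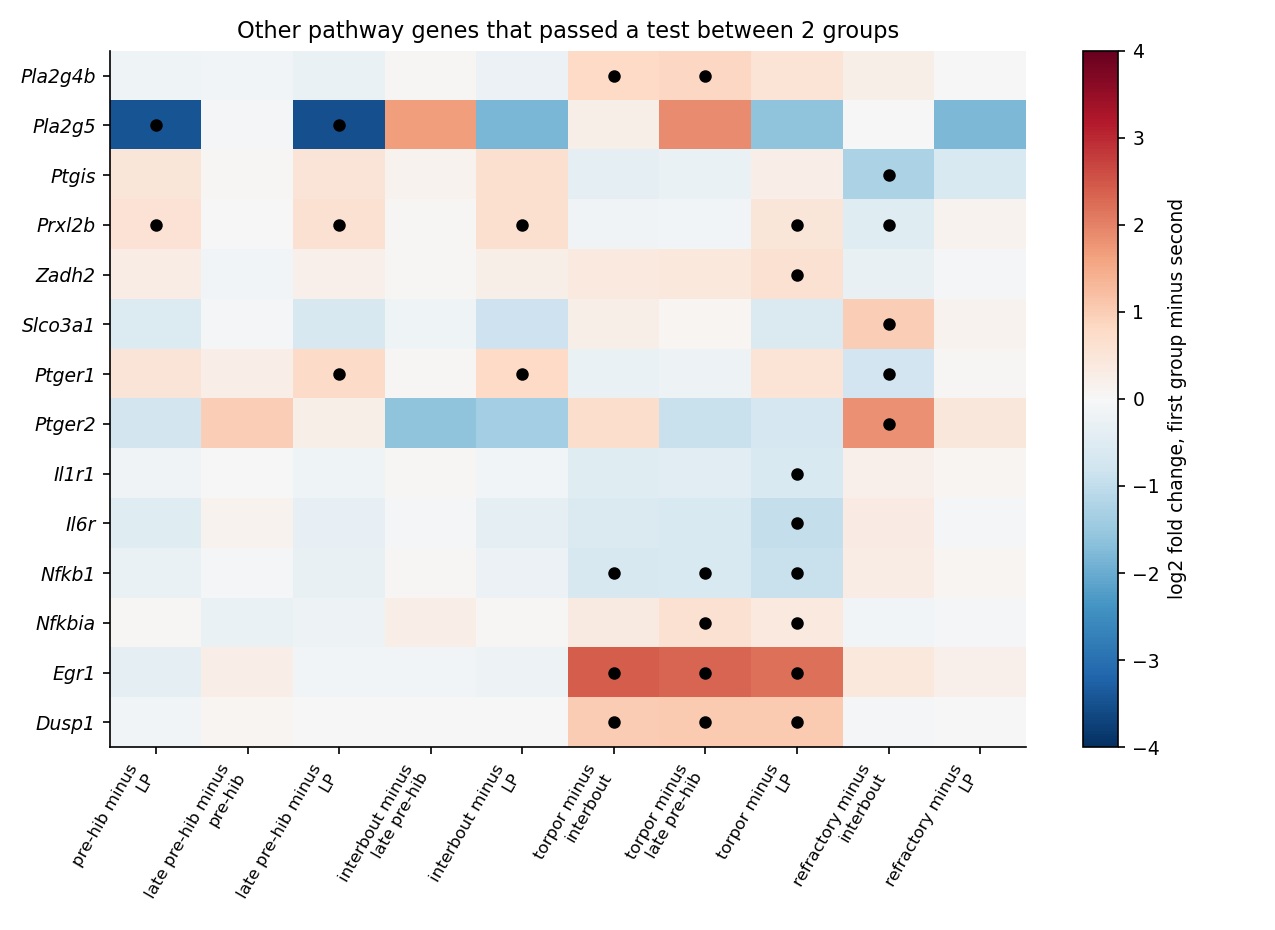
Log2 fold change (colour, first group minus second) of the 14 other pathway genes (rows) that passed in at least 1 of 10 comparisons (columns; LP is long photoperiod); black dots mark an adjusted p below 0.05. Prxl2b is raised in 4 comparisons with long photoperiod (0.48 to 0.63), while Egr1, Dusp1 and Nfkb1 are marked in all 3 torpor columns and Nfkbia in 2 of them.

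Among 11713 named genes with a mean log2 CPM above a floor of 1, those most like Ptges over the 36 libraries were Stra6, the cellular uptake receptor for retinol (Pearson r = 0.81 of log2 CPM), Aif1l, an actin-binding protein (0.802), Sulf2, a heparan sulfate 6-O-endosulfatase (0.8), Fam207a (0.788) and Edar, the ectodysplasin A receptor (0.763). Within groups, after group means were removed, r was 0.783, 0.742, 0.732, 0.683 and 0.679. The libraries share tissue cut and depth, so these values are a description with no p. With Spearman correlation 2 of the 5, and without the libraries rich in ribosomal RNA 3 of the 5, stayed among the first 5.

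The 5 genes had their highest mean in long photoperiod. Mean Stra6 was 490 ± 190 CPM in long photoperiod and 102 ± 47 in interbout, 20.8% of the long photoperiod mean, where Ptges was at 87.4%. Sulf2 stood at 85.7% in interbout (255 ± 46 against 297 ± 45 CPM), close to Ptges, and at 58.6% in late pre-hibernation where Ptges stood at 17.3%.

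**Figure D5:**
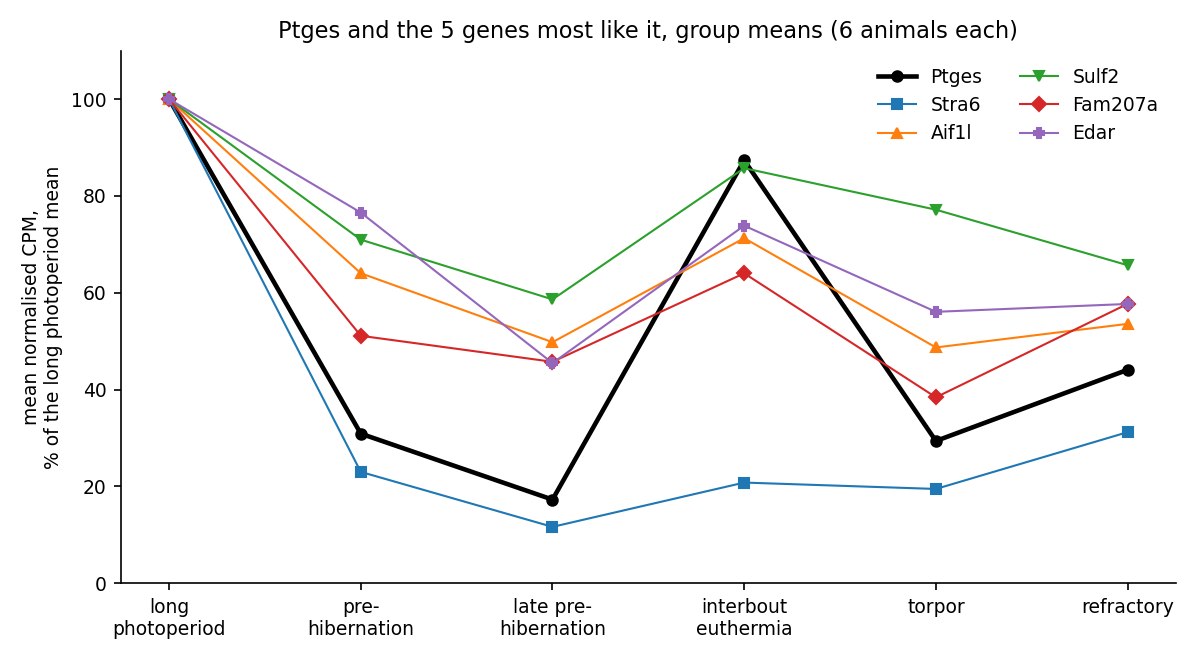
Mean normalised CPM of Ptges and the 5 genes most like it (lines), as percent of each gene's long photoperiod mean (vertical axis), in the 6 groups (horizontal axis, 6 animals each; lines join groups for reading only). Ptges falls to 17.3% in late pre-hibernation, stands at 87.4% in interbout and at 29.4% in torpor, while Stra6 stays at or below 31.2% in the 5 groups kept at 8 °C.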

How the data were processed

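The authors deposited raw counts, 1 table for each of 36 libraries. Per the file headers, paired fragments were assigned with featureCounts 2.0.1 to RefSeq exons of assembly BCM_Maur_2.0 and summed by gene, without strand; a version of the aligner was not given in the sources used here. RNA integrity numbers were at least 7, per the labels' protocols. The tables' Length column scaled levels to CPM/kb. No column was left unused, and no libraries were identical.

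Genes were filtered with filterByExpr (17926 tested), TMM-scaled and fitted by group in 1 robust edgeR 4.0.16 quasi-likelihood model (R 4.3.3), tested on simulated data; log2 CPM used a prior count of 2. Comparison tools were limma 3.58.1 (voom with quality weights) and DESeq2 1.42.0. Members, pathway and marker lists were chosen with earlier results of these data known. Named are all members, each pathway gene past the threshold in any test, and the 5 genes with the highest correlation with Ptges. Each library is from 1 animal. Alternatives were RLE scaling, 2 other filters, a replicate block, marker covariates, parts of the long photoperiod group, the groups compared alone, and leaving out libraries.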

Additional observations from a re-analysis of the deposited data

Results flagged for a closer look

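For each of the 9 genes in each of the 6 groups, 54 sets of 6 animals in all, the highest or lowest animal was checked for a gap to its neighbour larger than 0.625 of the group's range (Dixon's criterion). Chance flags about 1 in 20 such sets; 12 of 54 were found, and the sets are not independent since 1 library can be far out in several genes.

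Refractory 4, the shallowest library and one of the 3 rich in ribosomal RNA, gave 5 of the 12. It was highest in Ptgs2 (4.80 CPM, next 0.172), Ptger3 (7.88, next 0.911), Hpgd (6.17, next 3.04) and Ptger4 (5.14, next 1.50), and lowest in Ptges3 (165, next 426). The other libraries rich in ribosomal RNA were also low in Ptges3, pre-hibernation 5 at 318 CPM (next 422) and interbout 6 at 331 (next 428). Interbout 6 was high in Ptges2 (27.8, next 17.7). The part of RNA quality in these values was not tested.

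Torpor 4 stood apart in Ptges2 (24.2 CPM, next 14.7) and in Ptgs2 (0.657, next 0.169). Pre-hibernation 6 had the highest Ptges of its group (4.24 CPM, next 2.86), and interbout 3 the highest Ptgs2 of its group (0.132 CPM, next 0.0414, from 3 fragments).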

How the results depend on the processing

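Against long photoperiod, the fall of Ptges in late pre-hibernation kept its call in all 11 other settings and that in torpor in 9 of 11; the calls for Hpgd and the count of members over the 6 groups did not. Of 2 members passing over the 6 groups, limma gave 5, the filter of 1 CPM 1 and the marker covariates 1; leaving out single libraries gave 0 to 3. In pre-hibernation against long photoperiod (1 member) limma gave 2, and no filter, the covariates, and long photoperiod 1 to 3 or 4 to 6 alone gave 0 each; single libraries gave 0 to 1. In late pre-hibernation against long photoperiod (1) limma and leaving out the 3 libraries rich in ribosomal RNA gave 2 each. In torpor against interbout (1) RLE scaling, the filter of 1 CPM, no filter and the 2 groups alone gave 0 each, single libraries 0 to 1. In torpor against late pre-hibernation (0) DESeq2, limma and leaving out the 3 libraries gave 1 each, single libraries 0 to 1. In torpor against long photoperiod (2) no filter gave 1, and long photoperiod 1 to 3 or 4 to 6 alone 0 each; single libraries gave 1 to 3. In refractory against interbout (0) DESeq2 and limma gave 2 each and no filter 1, single libraries 0 to 1. With long photoperiod 1 to 3 as the only reference, Pla2g5 reversed to 0.29 in pre-hibernation and 0.25 in late pre-hibernation. Apart from settings with fewer libraries or other genes tested, the cause was not tested. Counts over all genes moved too: 2625 passed over the 6 groups with edgeR, 4172 with DESeq2, 7819 with limma, 5943 with no filter and 4952 without the 3 libraries. Between 2 groups the settings tried moved pre-hibernation against long photoperiod from 411 to between 108 and 2111, late pre-hibernation against it from 642 to between 226 and 3094, interbout from 332 to between 56 and 1569, torpor from 1622 to between 602 and 4299, and refractory from 59 to between 6 and 313. Torpor moved from 728 to between 482 and 1943 against interbout and from 797 to between 522 and 3475 against late pre-hibernation, and refractory against interbout from 628 to between 5 and 2026. Ptgs2, tested only with no filter (3 members then passed over the 6 groups, adjusted p = 0.0221 for Ptgs2), was lost without refractory 4 (0.308) and without the 3 libraries (0.315) and kept without torpor 4 (0.0197), 3 fits chosen after seeing the data. Depth limits Ptgs2, Ptger3, Ptger4 and Hpgd, with few fragments per library.

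Replicate numbers are shared between groups but come from separate animals. Same-numbered libraries did not deviate together (r from -0.329 to 0.481, no comparison with all 6 pairs over 0.1), and at most 1 of 6 correlated best with its own number. With the replicate block 1 member passed over the 6 groups, Hpgd, as the adjusted p of Ptger3 was 0.0758; all genes passing went from 2625 to 1915. The block changed no count of members between 2 groups.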

Other observations

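Dio2, the deiodinase that activates thyroid hormone in tanycytes, was chosen here after its values were seen. It ranked 15 of 11713 in likeness to Ptges (Pearson r = 0.697 over 36 libraries, 0.53 within groups). It averaged 44.7 ± 20.1 CPM in long photoperiod and 17.5 ± 11.2 in interbout, and between 5.06 and 7.24 CPM in the 4 other groups, so its 2 highest groups were those of Ptges. In interbout the 6 animals ran from 4.24 to 30.8 CPM (median 19.7).

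Microglia and macrophage markers summed to a median of 300 CPM in interbout (193.9 to 442.2), the highest of the 6 groups. The other medians were 257.8 in refractory animals, 251.2 in torpor, 218.9 in long photoperiod, 186.3 in late pre-hibernation and 179.2 in pre-hibernation. None of the 10 markers passed in any comparison, and the part of these cells in the Ptges level of interbout animals was not tested.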
